A study of Homo sapiens with 4 samples.

Results

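Transcripts of the nuclear-encoded subunits of the respiratory chain and ATP synthase were followed by complex in 22Rv1 cells, a human prostate cancer line, with and without a CD276 knockout. Members were the rows of the deposited count table whose gene name carries the prefix of a complex I, II, III, IV or V subunit. That rule matched 239 of 57014 named rows. Of these, 147 are pseudogenes and were dropped, which left 92 members. Of the 92, 87 are subunits or proteins named with them, with 36 in complex I, 4 in complex II, 10 in complex III, 17 in complex IV and 20 in complex V. The other 5 are antisense or readthrough rows and are described apart. NDUFA4 and its paralog NDUFA4L2 were placed in complex IV, where the NDUFA4 protein is found.

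The respiratory chain passes electrons from NADH (complex I) and succinate (complex II) through ubiquinone to complex III, then through cytochrome c to complex IV, where oxygen is reduced. Complexes I, III and IV pump protons across the inner mitochondrial membrane, and ATP synthase (complex V) uses the gradient to make ATP. Mitochondrial DNA encodes some core subunits of every complex except complex II, while all other subunits come from nuclear genes and are imported.

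The CD276 knockout (library names with sgCD276), replicates 1 and 3, was compared with a wild-type control whose library names carry sgGFP, also replicates 1 and 3. CD276 encodes the surface protein B7-H3. Both groups were grown in RPMI-1640 with fetal bovine serum and differ, as far as the labels say, only in the guide, and whether the knockout is a clone or a pool is not given there. Poly(A)-selected RNA was sequenced, and the series is about DNA methylation and B7-H3 as targets in prostate cancers that lost RB1 or became neuroendocrine. The design text calls the replicates biological without naming separate cultures, and the tests can only weigh differences against the scatter of these 4 libraries, which may be technical. In bulk RNA, fewer cells of a kind and less RNA per cell cannot be told apart.

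Named rows summed to 24437926 and 25802417 counts in the knockouts and to 23206271 and 20079050 in the controls, and levels are given as TMM-normalized CPM, counts scaled to a common library size. On that scale 1 CPM stood for 19.4 to 26.3 counts. Levels are listed in knockout replicates 1 and 3 and then in control replicates 1 and 3, and differences are log2 fold changes of knockout over control with their standard error (SE). A gene is said to have risen or fallen where its p from edgeR's quasi-likelihood test, after Benjamini-Hochberg adjustment over all 18043 genes tested, was under 0.05. By that rule 9.87% of all genes rose and 12.9% fell. CD276 itself was at 23.7 and 26.3 CPM in the knockouts and at 47.4 and 54.4 CPM in the controls (log2 fold change -1.03 ± 0.16 SE, edgeR adjusted p = 0.00561), and the adjusted p was 0.0812 without control replicate 3. All 10 prostate luminal markers were detected, with summed levels of 3182 and 3947 CPM in the knockouts and 3990 and 3907 CPM in the controls, and KRT18 was the 1 of them that was called (lower, -0.68). The endothelial markers PECAM1 and CDH5 and the T cell marker CD3E had 0 counts in every library. The 5 leukocyte markers summed to 1.03 and 2.24 CPM in the knockouts and to 2.15 and 1.497 CPM in the controls. The 5 stromal markers summed to 34.4 and 47.3 CPM in the knockouts and to 60.4 and 54.3 CPM in the controls. Among them COL1A1 was called lower (means of 24.0 CPM in the knockouts and 48.1 CPM in the controls), LUM was called higher (13.9 and 7.72 CPM), and COL1A2, COL3A1 and DCN had positive values without a call. The part of these cell types in the results was not tested.

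Of the 87 subunit genes, 82 passed the filter on low counts. Among them 5 rose, 24 fell and 53 were not called. The share that fell, 29.3%, stood beside 12.9% of all genes tested and 11.2% of nuclear protein-coding genes. The share that rose, 6.10%, stood beside 9.87% of all genes and 12.2% of nuclear protein-coding genes. The median log2 fold change of the 82 was -0.37, against -0.0045 for all genes tested. The genes that rose were NDUFB5, NDUFA8, SDHC, COX7A2L and ATP5PB. Those that fell were 16 subunits of complex I, 6 of complex V and 1 each of complexes III and IV. Both knockouts lay below both controls for 53 of the 82 and above them for 11. Over all genes tested 34.1% lay below and 31.8% above, 65.9% in all, and over nuclear protein-coding genes 30.5% lay below and 36% above, 66.5% in all.

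The number of calls, over all genes as among the subunits, differed between ways of fitting and with the library left out. In a fit with offsets for transcript GC content and length in each library, an alternative chosen after seeing the data, 7 subunits rose and 6 fell, and the median log2 fold change was -0.0327. All 5 rises and 6 of the 24 falls were called there. These offsets were fitted to each library's deviation from the mean of the 4 libraries, without regard to group. They therefore also take up any difference between the groups that follows length or GC content, whatever its source. Calls were fewer with 1 control library left out and more with 1 knockout library left out, over all genes as among the subunits. Such fits leave a lone library in a group, so medians are given here. The median log2 fold change of the subunits was -0.181 without knockout replicate 1 and -0.522 without knockout replicate 3. It was -0.361 without control replicate 1 and -0.41 without control replicate 3, against -0.37 with all 4 libraries. The medians over all genes in these 4 fits were -0.00243, -0.0166, 0.00437 and 0.00536, in the same order. DESeq2 on all 4 libraries called 6 subunits higher and 30 lower, beside 10.4% and 11.9% of all genes tested.

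**Figure D1:**
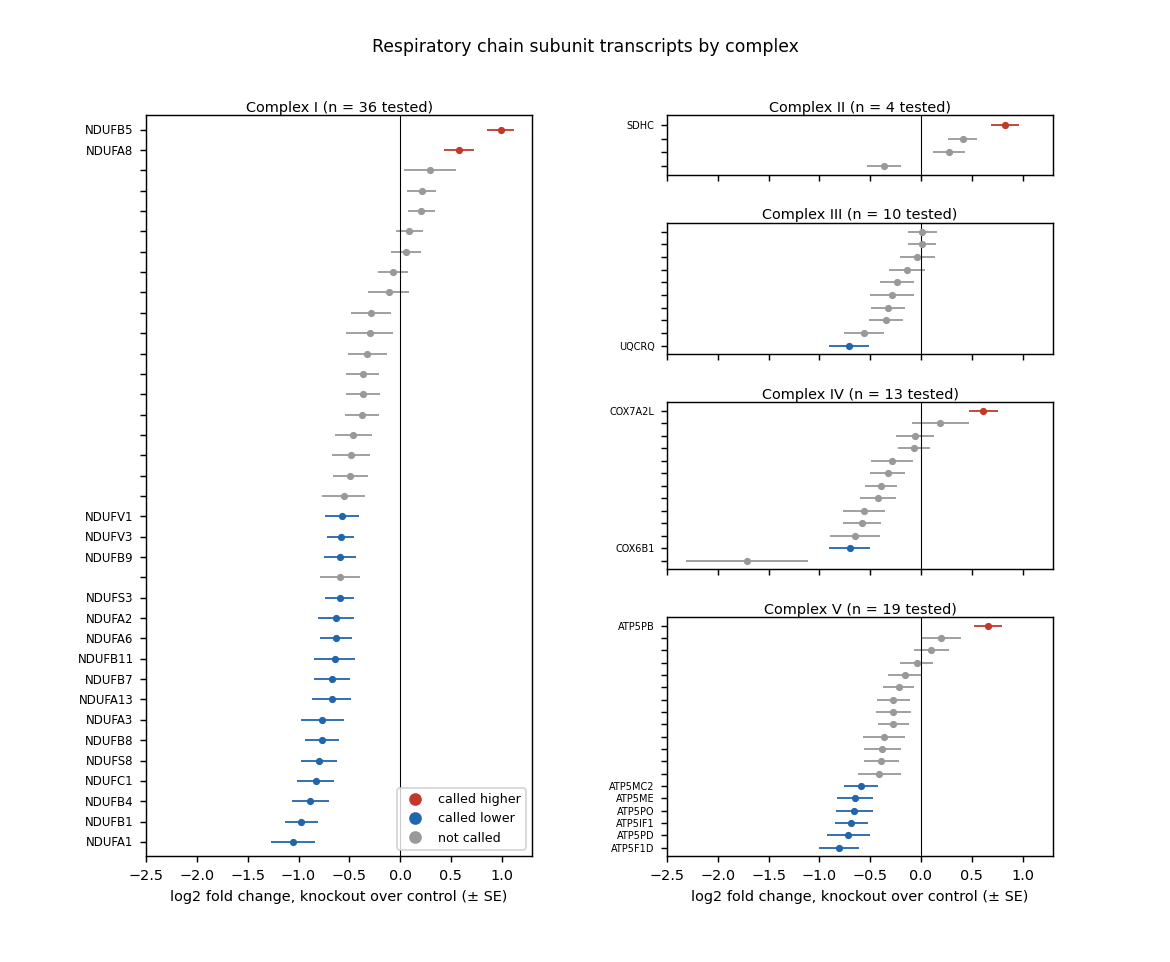
Log2 fold change of knockout over control (x axis, ± SE) for each of the 82 tested subunits (y axis, names given for those called), grouped by complex and coloured by the edgeR call. In complex I 16 of 36 subunits fell and 2 rose, and 3 of the 4 complex II subunits have positive values.

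The knockout libraries were not equal. Set against the control mean, the 82 subunits had a median of -0.59 in the first knockout library (replicate 1) and of -0.19 in the other (replicate 3), both on the log2 scale, and 79 of the 82 were higher in knockout replicate 3 than in knockout replicate 1. By complex the medians in replicates 1 and 3 were -0.74 and -0.28 for complex I, -0.46 and -0.084 for complex III, -0.59 and -0.22 for complex IV and -0.61 and -0.16 for complex V. For complex II they were 0.26 and 0.43. Over all genes tested the medians were -0.048 and 0.013. Together the 87 subunit genes took 1.60% and 1.92% of raw counts in the knockouts and 2.04% and 1.92% in the controls. The share in knockout replicate 3 was thus that of control replicate 3, but these shares are not TMM-normalized. Subunits encoded in mitochondrial DNA took 1.44% and 1.76% of counts in the knockouts and 5.79% and 6.09% in the controls, which leaves less for other genes there.

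**Figure D2:**
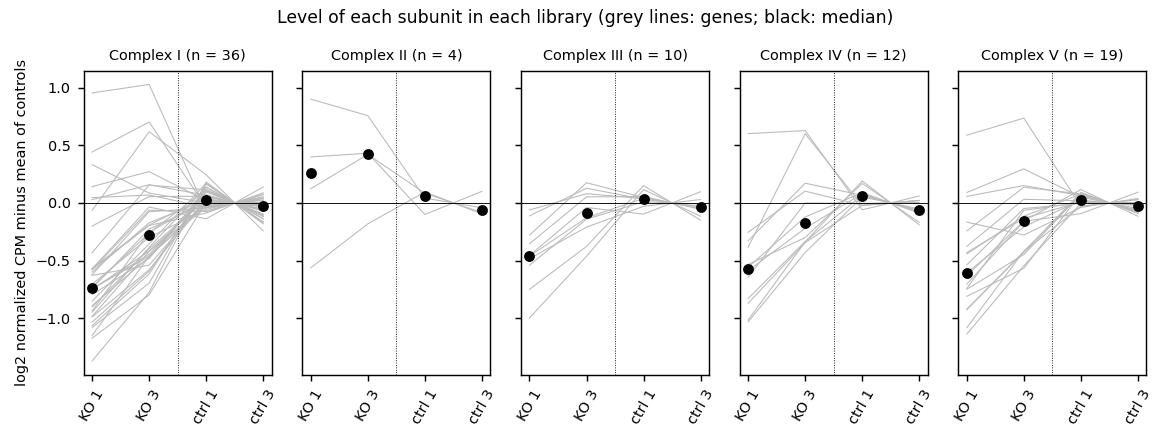
Log2 normalized CPM of each subunit minus the mean of the controls (y axis) in the 2 knockout and 2 control libraries (x axis), by complex, with a grey line per gene and the median in black. COX6B2, under 1 CPM, is left out, and knockout replicate 1 lies below knockout replicate 3 in the medians of all 5 complexes.

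Complex I, the NADH dehydrogenase, had the most called subunits. Among its 36 nuclear genes there were 16 falls, 2 rises and 18 without a call, and the median log2 fold change was -0.52. The shares were 44.4% falls and 5.56% rises, beside 12.9% and 9.87% of all genes tested. NDUFA1, an accessory subunit of the membrane arm encoded on the X chromosome, was at 80.9 and 122 CPM in the knockouts and at 237 and 185 CPM in the controls. The groups did not overlap, and its log2 fold change was -1.05 ± 0.21 SE (edgeR adjusted p = 0.0124). NDUFA1 shares 44.5% of its exonic bases with RNF113A on the opposite strand. NDUFB1, another membrane-arm subunit, was at 36.9 and 47.9 CPM in the knockouts and at 83.8 and 82.7 CPM in the controls, a log2 fold change of -0.97 ± 0.16 SE (edgeR adjusted p = 0.00674). It shares no annotated exon with another gene. NDUFB4, also of the membrane arm, was at 151 and 197 CPM in the knockouts and at 358 and 285 CPM in the controls (log2 fold change -0.88 ± 0.18 SE, edgeR adjusted p = 0.0135), again with no overlap between the groups.

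The subunits of complex I that fell came from all parts of the enzyme. The counts by part stand beside 9.87% of all genes tested that rose and 12.9% that fell. At that share of rises, 0 in a group of 10 genes or fewer is common. In the N module as grouped here, which oxidizes NADH, 4 of 10 fell, 6 were not called and 0 rose (by edgeR's p before adjustment, 6 lower and 0 higher, and 0 higher by DESeq2). These were NDUFV1, which carries the FMN site (log2 fold change -0.57 ± 0.17 SE), NDUFV3 (-0.58 ± 0.13 SE), NDUFA2 (-0.63 ± 0.18 SE) and NDUFA6 (-0.63 ± 0.16 SE). In the Q module, which hands electrons to ubiquinone, 2 of 5 fell and 0 rose (0 also by edgeR's p before adjustment and by DESeq2), namely NDUFS8, an iron-sulfur subunit (-0.80 ± 0.18 SE), and NDUFS3 (-0.60 ± 0.15 SE). In the proton-pumping P module of the membrane arm 2 rose and 10 fell of 21. The Q and P modules are also as grouped here, with NDUFA9, which was not called, counted in the P module. Besides NDUFA1, NDUFB1 and NDUFB4, the subunits that fell there were NDUFC1 (-0.83), NDUFB8 (-0.77), NDUFA3 (-0.77), NDUFA13 (-0.68), NDUFB7 (-0.67), NDUFB11 (-0.65) and NDUFB9 (-0.59), with edgeR adjusted p of 0.0143 to 0.0498. NDUFB11 shares 44.9% of its exonic bases with RBM10 on the opposite strand, and NDUFB8 shares 33.8% with a gene on the same strand. Shared exonic bases came to 21.0% each for NDUFB9 (opposite strand) and NDUFA13 (same strand), 19.7% for NDUFS3 and 18.6% for NDUFC1 (both same strand). Of the 7 nuclear core subunits that bacteria also have, 3 fell (NDUFV1, NDUFS3 and NDUFS8) and 0 rose (0 also by edgeR's p before adjustment and by DESeq2). NDUFS1, the largest iron-sulfur subunit, had a log2 fold change of 0.21 ± 0.14 SE and was not called. Of the 18 subunits of complex I that were not called, 9 had both knockouts below both controls, among them NDUFB3 (-0.59 ± 0.19 SE, edgeR adjusted p = 0.0577), and 3 had both above. Over all genes tested, called or not, 34.1% lay below and 31.8% above, so such a separation is common with 2 libraries a group.

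The rises in complex I were of the same membrane arm. NDUFB5 (GRCh38 chr3:179604690-179627647, plus strand) was at 113 and 119 CPM in the knockouts and at 55.5 and 61.4 CPM in the controls. Every knockout value was above every control value, with a log2 fold change of 0.99 ± 0.14 SE (edgeR adjusted p = 0.00406), and it was the 1 rise still called without control replicate 3. NDUFA8, a twin CX9C protein imported through the intermembrane space, was at 59.2 and 70.9 CPM in the knockouts and at 42.4 and 44.8 CPM in the controls (log2 fold change 0.58 ± 0.15 SE, edgeR adjusted p = 0.0271). Neither gene shares annotated exons with another. With GC and length offsets NDUFB5 and NDUFA8 rose (log2 fold change 1.21 and 0.86), and the 6 subunits that fell were all of complex I: NDUFV3 (-0.74), NDUFA1 (-0.72), NDUFC1 (-0.52), NDUFB4 (-0.52), NDUFB1 (-0.50) and NDUFA6 (-0.47).

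Complex II, succinate dehydrogenase, also belongs to the citric acid cycle and has no subunit encoded in mitochondrial DNA. SDHC rose and the other 3 genes were not called, and the median log2 fold change was 0.34. That share of rises, 25%, rests on 4 genes and stood beside 9.87% of all genes tested. SDHC (GRCh38 chr1:161314257-161375340, plus strand), a membrane anchor that helps bind ubiquinone and heme, was at 197 and 178 CPM in the knockouts and at 108.5 and 102 CPM in the controls. Its groups were far apart, with a log2 fold change of 0.83 ± 0.14 SE (edgeR adjusted p = 0.00685). SDHA, the flavoprotein that oxidizes succinate, was at 217 and 222 CPM in the knockouts and at 153 and 176 CPM in the controls (0.41 ± 0.14 SE, edgeR adjusted p = 0.0666). SDHB, the iron-sulfur subunit, was at 121 and 148 CPM in the knockouts and at 117 and 104.5 CPM in the controls (0.28 ± 0.15 SE, edgeR adjusted p = 0.219). For both, the groups did not overlap, although the lower SDHB knockout value lay close to the higher control. Over all genes tested the groups did not overlap for 65.9%. SDHD, the other membrane anchor, was below the controls, at 83.5 and 109 CPM in the knockouts and 132 and 115 CPM in the controls (-0.36 ± 0.17 SE, edgeR adjusted p = 0.141). With GC and length offsets SDHC, SDHA and SDHB rose (log2 fold change 0.84, 0.44 and 0.47, edgeR adjusted p = 0.00278, 0.0310 and 0.0325). SDHA also rose by DESeq2 and under library totals alone. The difference between complex II and the other complexes was not tested.

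Complex III, which passes electrons from ubiquinol to cytochrome c, had 1 subunit of 10 that fell, 9 that were not called and 0 that rose (0 higher and 2 lower by edgeR's p before adjustment, and the same numbers by DESeq2). Its share of falls, 10%, was not above the 12.9% of all genes tested. UQCRQ, a small subunit of the complex, was at 122 and 176 CPM in the knockouts and at 263 and 224 CPM in the controls (log2 fold change -0.71 ± 0.19 SE, edgeR adjusted p = 0.0327). It shares 20.8% of its exonic bases with GDF9 on the opposite strand. CYC1, which encodes cytochrome c1 and had the highest CPM of the complex, was at 423 and 547 CPM in the knockouts and at 788 and 640 CPM in the controls (-0.56 ± 0.20 SE, edgeR adjusted p = 0.0696). The core protein UQCRC2 and the Rieske iron-sulfur protein UQCRFS1 had overlapping groups and log2 fold changes of 0.01 each. UQCRH, the hinge protein, had a far higher level per length than its paralog UQCRHL. UQCRH stood at 513 CPM per kb in the knockouts and 564 in the controls, and UQCRHL at 3.59 and 4.38. Neither was called (log2 fold change -0.14 ± 0.18 SE and -0.29 ± 0.22 SE), and reads of near-identical copies could be split between them.

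Complex IV, cytochrome c oxidase, had 1 subunit that rose, 1 that fell and 11 that were not called of 13 tested. Its shares, 7.69% in each direction, were below the 9.87% of all genes tested that rose and the 12.9% that fell. COX7A2L, which helps join complexes III and IV into supercomplexes, was at 51.8 and 52.8 CPM in the knockouts and at 32.8 and 35.6 CPM in the controls. The groups were well separated (log2 fold change 0.61 ± 0.14 SE, edgeR adjusted p = 0.0190). Its paralog COX7A2 had overlapping groups, at 165 and 258 CPM in the knockouts and 257 and 258 CPM in the controls (-0.29 ± 0.21 SE, edgeR adjusted p = 0.338). COX6B1, a peripheral subunit facing the intermembrane space, was at 170 and 257.5 CPM in the knockouts and at 359.5 and 335 CPM in the controls (-0.70 ± 0.20 SE, edgeR adjusted p = 0.0397). COX6A1, with the highest CPM of the complex, was at 496 and 699 CPM in the knockouts and at 923.5 and 842 CPM in the controls (-0.56 ± 0.20 SE, edgeR adjusted p = 0.0783). COX5B (-0.58), COX8A (-0.42), COX7B (-0.39) and COX6C (-0.33) were not called either. Both knockouts lay below both controls for 8 of the 13 tested, these included, and above them for 1, while 4 overlapped. Over all genes tested 34.1% lay below and 31.8% above.

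Isoforms of complex IV subunits known from heart, muscle or testis were at or near 0. COX7B2 had 0 counts in every library, COX8C had 1 count and COX6A2 had 2 counts over the 4 libraries, and COX7A1 had 10 and 3 counts in the knockouts and 12 and 1 in the controls. None of these 4 passed the filter on low counts. COX6B2, a testis isoform, had 5 and 8 counts in the knockouts and 23 and 12 in the controls and was tested but not called (log2 fold change -1.71 ± 0.60 SE, edgeR adjusted p = 0.0714).

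Neither NDUFA4 nor NDUFA4L2 was called. NDUFA4 was at 334.5 and 535 CPM in the knockouts and at 771 and 592 CPM in the controls (log2 fold change -0.65 ± 0.24 SE, edgeR adjusted p = 0.0854). Its paralog NDUFA4L2, a known hypoxia-inducible gene, was at 354 and 700.1 CPM in the knockouts and at 455 and 469 CPM in the controls. Knockout replicate 1 was thus below both controls and knockout replicate 3 above both (0.19 ± 0.28 SE, edgeR adjusted p = 0.657). The direction of NDUFA4L2 turned with the library: without knockout replicate 3 it was called lower (-0.315, edgeR adjusted p = 0.00857), and without knockout replicate 1 it was called higher (0.612, edgeR adjusted p = 7.21e-08). On the scale of CPM per kb NDUFA4L2 stood at 446 in the knockouts and 391 in the controls, and NDUFA4 at 204 and 320. The lengths are those of the annotated principal transcripts, and the difference between the paralogs was not tested.

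Complex V, ATP synthase, had 1 gene that rose, 6 that fell and 12 that were not called of 19 tested. Its shares were 31.6% falls and 5.26% rises, beside 12.9% and 9.87% of all genes tested. In the catalytic F1 head ATP5F1B, the beta subunit and the member with the highest CPM, was at 2191 and 2525 CPM in the knockouts and at 2129 and 1989 CPM in the controls (log2 fold change 0.20 ± 0.20 SE, edgeR adjusted p = 0.503). ATP5F1A, the alpha subunit, was not called either (0.10 ± 0.17 SE). ATP5F1D, the delta subunit of the central rotor, was at 126.5 and 191 CPM in the knockouts and at 278 and 279 CPM in the controls (-0.81 ± 0.20 SE, edgeR adjusted p = 0.0221). The head thus included 1 subunit that fell and 4 that were not called.

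The peripheral stalk, which holds the head still while the rotor turns, had calls in both directions. ATP5PB, its subunit b, was at 226 and 251 CPM in the knockouts and at 148 and 154 CPM in the controls (log2 fold change 0.66 ± 0.14 SE, edgeR adjusted p = 0.0138). ATP5PD, subunit d, was at 147 and 233 CPM in the knockouts and at 327 and 295.5 CPM in the controls (-0.71 ± 0.21 SE, edgeR adjusted p = 0.0442). ATP5PO, the oligomycin sensitivity conferral protein, was at 57.7 and 81.5 CPM in the knockouts and at 117 and 103 CPM in the controls (-0.66 ± 0.18 SE, edgeR adjusted p = 0.0339). The stalk therefore held 1 rise and 2 falls among 4 genes, and ATP5PF, the remaining one, was not called (-0.27 ± 0.18 SE). Over all genes tested 9.87% rose and 12.9% fell. ATP5PB shares 10.4% of its exonic bases with WDR77 on the opposite strand. ATP5PO shares 19.6% with a gene on the same strand and ATP5PD 19.1% with genes on the opposite strand.

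In the membrane part 2 of 8 fell and 0 rose (0 also by edgeR's p before adjustment and by DESeq2), and both knockouts were below both controls for all 8. Over all genes tested 34.1% lay below, 12.9% fell and 9.87% rose. ATP5ME, subunit e, had a log2 fold change of -0.65 ± 0.18 SE (edgeR adjusted p = 0.0337) and shares 61.6% of its exonic bases with MYL5 on the opposite strand. The proton-carrying c ring is encoded by a trio of genes. ATP5MC2 fell, at 271.5 and 335 CPM in the knockouts and 482 and 432 CPM in the controls (-0.59 ± 0.17 SE, edgeR adjusted p = 0.0371). ATP5MC1 and ATP5MC3 were not called (-0.27 ± 0.16 SE and -0.27 ± 0.15 SE). Per length ATP5MC2 stood at 345 CPM per kb in the knockouts and 520 in the controls, ATP5MC1 at 324 and 391, and ATP5MC3 at 227 and 275. ATP5IF1, which encodes the inhibitor that stops the enzyme from hydrolysing ATP, was at 215 and 254 CPM in the knockouts and at 399 and 356 CPM in the controls (-0.69 ± 0.16 SE, edgeR adjusted p = 0.0189). ATP5S, which despite its name is not a subunit, was not called (-0.22 ± 0.16 SE). ATP5MGL had 1 and 0 counts in the knockouts and 5 and 3 in the controls and was not tested.

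The 5 members that are no subunits had low counts. NDUFV2-AS1, NDUFA6-AS1, NDUFB2-AS1 and ATP5MF-PTCD1 were tested, and edgeR called 0 of them, also before adjustment of p. NDUFC2-KCTD14 had 0 counts. The 147 dropped pseudogene rows together held 0.00149% and 0.00137% of counts in the knockouts and 0.00135% and 0.00153% in the controls, and 5 of them passed the filter.

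Other genes of the pathway were read from lists of subunits encoded in mitochondrial DNA, assembly factors, coenzyme Q synthesis and transcription regulators. The mitochondrially encoded subunits had medians of -2.14 for 7 subunits of complex I, -2.04 for MT-CYB of complex III, -1.88 for 3 of complex IV and -2.23 for 2 of complex V. The nuclear medians of the same complexes were -0.52, -0.26, -0.39 and -0.36. Of the 13, 12 fell, and MT-ND3 was not called (-1.16 ± 0.38 SE, edgeR adjusted p = 0.0588). Assembly factors build the complexes but are absent from them, and of 56 listed here 7 rose, 8 fell and 41 were not called (median -0.058). Their shares, 12.5% rises and 14.3% falls, were near the 9.87% and 12.9% of all genes tested. For complex IV 4 of 23 rose and 3 fell, with a median of 0.089. COX10, which makes heme O for complex IV, was at 17.3 and 16.3 CPM in the knockouts and at 8.69 and 8.0 CPM in the controls (1.01 ± 0.18 SE, edgeR adjusted p = 0.00915). PET100 (-1.03 ± 0.20 SE) and the copper chaperone COX17 (-0.92 ± 0.16 SE), both for complex IV, fell. The other calls on the list for complex IV were rises of COX18 (0.69), COX15 (0.56) and LRPPRC (0.44) and a fall of COA6 (-0.79). That list was drawn broadly, and LRPPRC is not an assembly factor in the strict sense. Of the assembly factors of complex I, TIMMDC1 rose (0.54) and NDUFAF3 (-0.58) and NDUFAF8 (-0.66) fell. SDHAF3 of complex II (0.70) and ATPAF1 of complex V (0.55) rose, and FMC1 of complex V (-0.84) and UQCC3 (-0.69) and BCS1L (-0.48) of complex III fell.

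Coenzyme Q and cytochrome c carry electrons between the complexes. Of 13 genes of coenzyme Q synthesis, COQ9 (0.48 ± 0.13 SE) and PDSS2 (0.67 ± 0.19 SE) rose, 11 were not called and 0 fell (by edgeR's p before adjustment 1 was lower). The 15.4% that rose stood beside 9.87% of all genes tested. CYCS, the gene of cytochrome c, which the name rule does not cover, was at 615 and 563 CPM in the knockouts and at 345 and 369 CPM in the controls (0.72 ± 0.16 SE, edgeR adjusted p = 0.0154). COX4I1 and NDUFAB1, subunits that the rule also misses, were not called (-0.31 and -0.15), and COX4I2 had 0 counts. Among 9 tested transcription regulators TFAM, which packages and transcribes mitochondrial DNA, rose (0.70 ± 0.15 SE, edgeR adjusted p = 0.0134), GABPB2 fell (-0.66 ± 0.17 SE) and 7 were not called. These shares, 11.1% in each direction, were near the 9.87% and 12.9% of all genes tested.

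**Figure D3:**
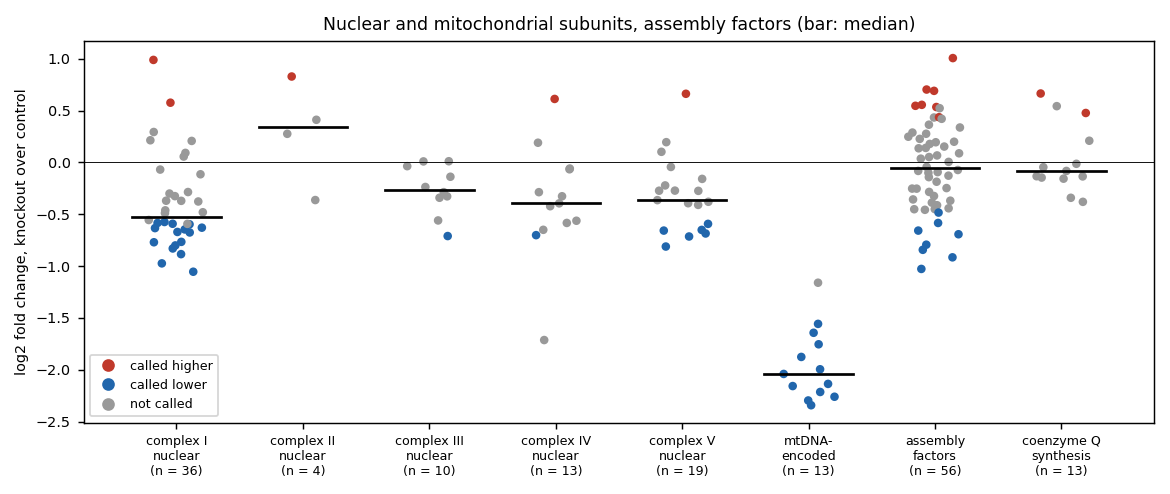
Log2 fold change of knockout over control (y axis) for nuclear subunits by complex, subunits encoded in mitochondrial DNA, assembly factors and coenzyme Q synthesis genes (x axis), with a point per tested gene and a bar at the median. The 13 mitochondrially encoded subunits have a median of -2.04, below every nuclear complex.

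Subunit transcripts are short, and their fold changes were ordered by length. The annotated principal transcripts of the 82 had a median of 945 bases, against 3005 for nuclear protein-coding genes. Of the 28 subunits with up to 750 bases 11 fell and 0 rose, and of the 30 with 750 to 1500 bases 11 fell and 2 rose. Of the 14 with 1500 to 3000 bases 1 fell and 1 rose, and of the 10 with more than 3000 bases 1 fell and 2 rose. The medians of these classes were -0.56, -0.39, -0.056 and 0.098, the last pair resting on few genes. In the same classes of all nuclear protein-coding genes the medians were -0.39, -0.18, 0.017 and 0.16, and 21.6%, 15.2%, 11.6% and 9.39% fell. The shares of these genes that rose were 1.20%, 6.23%, 10.7% and 15.3%, so rises were rare among short transcripts in general. Subunits that rose had a median GC content of 43.1% and those that fell one of 54.1%. Across the 82 genes, which share the same libraries and are not replicates, the log2 fold change had a Spearman's rho of 0.51 with length and -0.42 with GC content, and Pearson's r of 0.48 (with log10 of length) and -0.38. Over 13757 nuclear protein-coding genes rho was 0.20 and -0.24. The short-transcript medians also differed between the knockouts, at -0.78 in replicate 1 and -0.32 in replicate 3 for subunits of up to 750 bases.

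**Figure D4:**
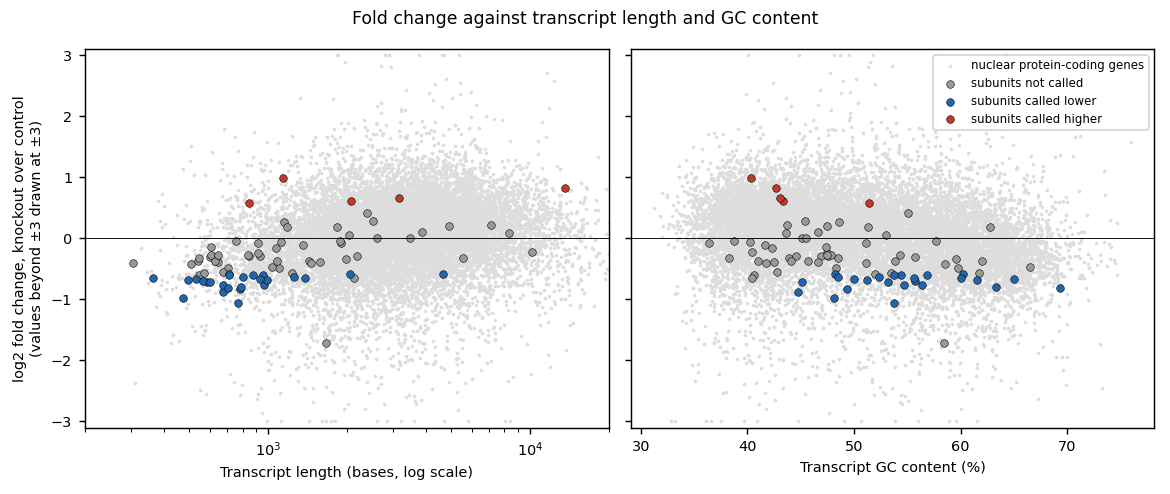
Log2 fold change of knockout over control (y axis) against annotated transcript length (left, log scale) and GC content (right), with nuclear protein-coding genes in light grey and the 82 subunits as larger points coloured by call. The 24 subunits that fell have a median length of 775.5 bases and the 5 that rose one of 2084 bases.

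**Figure D5:**
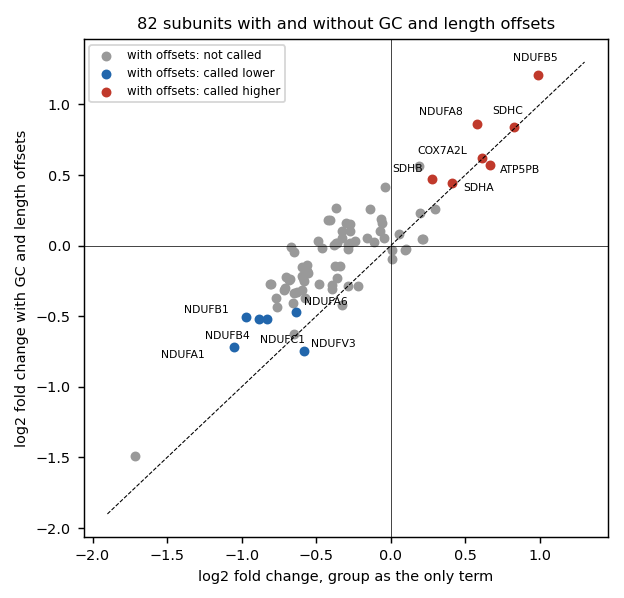
Log2 fold change of each of the 82 subunits with group as the only term (x axis) and with GC and length offsets (y axis), coloured by the call with offsets, and the dashed line marks equal values. With offsets 7 subunits were called higher and 6 lower, and 36 of the 82 had a positive value. Over all genes of that fit 13.2% were called higher and 11.8% lower.

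Promoter sequences were taken from RefSeq (GRCh38.p14), from 250 bases before to 50 after a gene's start, and were matched to 69 of the 87 subunit genes. The first start listed was used where a gene has several. Letters searched on both strands were the 10-base palindrome of nuclear respiratory factor 1 (NRF1), given in capitals in NDUFA8 and NDUFB4 further on, CCGGAAG, the core read by ETS proteins such as GABPA, and AAGATGG, read by YY1. The ETS letters were in 19 of the 69 (27.5%), against 10.7% of all 27305 promoters in the table. The YY1 letters were in 16 (23.2%, against 6.06%) and the NRF1 letters in 4 (5.80%, against 1.36%). The 27305 promoters were not limited to protein-coding genes or to genes expressed here, so the sets compared are unlike. Among promoters of subunits that fell, 8 of 22 (36.4%) held the ETS letters, while 0 of the 3 matched for subunits that rose and 11 of 41 (26.8%) of those not called did. The YY1 letters were in 4 of 22 (18.2%) promoters of subunits that fell and in 11 of 41 (26.8%) of those not called. A match is a description of these letters and not of binding. The windows that follow are the 30 bases around each ETS match of subunits that fell, 5′ to 3′ on the gene's strand, with the matching letters in capitals.
NDUFA1 (chrX:119871774-119871803, plus strand): ttccgtcgcttCTTCCGGagccgtacgtgg
NDUFS3, first match (chr11:47578961-47578990, plus strand): cggaacctccgCTTCCGGctccacgtccgc
NDUFS3, next match (chr11:47578980-47579009, plus strand): tccacgtccgcCCGGAAGaagatctgctgc
NDUFB7 (chr19:14572072-14572101, minus strand): gcctaaatgacCCGGAAGctgtgtctgact
NDUFA13 (chr19:19516204-19516233, plus strand): tccgcccgggaCCGGAAGtgtgggatactg
UQCRQ (chr5:132866577-132866606, plus strand): aatggtatctcCCGGAAGttacctcacgac
COX6B1 (chr19:35648300-35648329, plus strand): acctctctcagCTTCCGGctggtagtagtt
ATP5ME (chr4:674255-674284, minus strand): tgcaggttgtgCTTCCGGtgcggaggtcag
ATP5PD (chr17:75047052-75047081, minus strand): ccgggaagataCTTCCGGaaccagccctca

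The NRF1 letters stood in 1 promoter of a subunit that rose and in 1 of a subunit that fell, and the pair is shown because the same letters occur with both directions. In NDUFA8, which rose, the match began 4 bases before the start, and in NDUFB4, which fell, 159 bases before it.
NDUFA8 (chr9:122159764-122159793, minus strand): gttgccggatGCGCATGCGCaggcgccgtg
NDUFB4 (chr3:120596167-120596196, plus strand): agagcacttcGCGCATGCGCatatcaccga

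The YY1 letters likewise stood in ATP5PB, which rose, and in NDUFA6, NDUFA3, ATP5ME and ATP5PO, which fell. The windows of ATP5PB and NDUFA6 are given as an example of each direction.
ATP5PB (chr1:111449452-111449481, plus strand): cttgtgagcggCCATCTTggtcctgccctg
NDUFA6 (chr22:42090729-42090758, minus strand): gatgctttggcAAGATGGcggggagcggcg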

How the data were processed

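RNA of 4 libraries of 22Rv1 cells, 2 knockout and 2 control, was measured by poly(A)-selected TruSeq sequencing with paired ends, per the labels' protocols. Raw counts of all 4 libraries stand in 1 table that the authors deposited. Trimmomatic 0.36, STAR 2.5.2b, featureCounts from Subread 1.5.2 and the GRCh38 build are named in the submitters' processing notes. Not given in the sources used here are the annotation release, whether strand was used in counting and how reads with several hits were treated, so reads of overlapping or near-identical genes may be assigned to either.

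The 486 rows without a gene name (0.0191% to 0.0290% of a library's counts) were left out. Counts were filtered with filterByExpr, scaled by TMM (factors 1.08 and 1.003 for the knockouts, 0.962 and 0.965 for the controls) and fitted in R 4.3.3 by the quasi-likelihood functions of edgeR 4.0.16 (glmQLFTest after a robust glmQLFit) with a term for group alone, which leaves 2 residual degrees of freedom, and Benjamini-Hochberg adjustment ran over all 18043 genes. The SE is the log2 fold change divided by the square root of F. Levels relative to controls used log2 CPM with a prior count of 2. Positions, exon overlap, and the length and GC content of principal transcripts came from GENCODE 29. The scripts were tested on simulated counts. Members and lists were chosen with earlier results of these data known. Named are every called member, the member with the highest CPM of each complex, isoform sets, and up to 3 called genes of each other list; further genes were named after their values were seen. Alternatives were RLE, upper quartile and library-total scaling, other low-count filters, DESeq2 1.42.0, limma voom 3.58.1, a fit that is not robust, a block for the replicate number, a threshold of 0.01 and leaving out each library; the fits with GC and length offsets (splines with 5 degrees of freedom) and on nuclear protein-coding genes alone were added after seeing the data. No label gives a batch. The values of 1 subunit are not reported here.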

Additional observations from a re-analysis of the deposited data

How the results depend on the processing

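With group as the only term edgeR called 4111 genes, with 5 subunits higher, 24 lower and a subunit median of -0.37. At an adjusted p under 0.01 the calls were 1036 genes, 2 subunits higher and 1 lower. Leaving out each library in turn gave 312 to 9198 genes, 0 to 11 subunits higher, 0 to 60 lower and subunit medians of -0.522 to -0.181; the lone library of a group is then assumed to vary like the other group. CD276 then had log2 fold changes of -1.13 to -0.924, and the adjusted p of edgeR was 0.0812 without control replicate 3. With GC and length offsets, chosen after seeing the data, 6 subunits fell and the median was -0.0327, with 7 higher. Over all genes of that fit 13.2% rose and 11.8% fell, with a median of 0.0724. Under RLE, upper quartile and library-total scaling, other filters, DESeq2, voom, robust=FALSE and nuclear protein-coding genes alone, 5 to 6 subunits rose and 20 to 32 fell, and all 5 rises were called. Library totals alone shifted the median of all genes to 0.10 and gave 6 higher and 20 lower. The offsets turned the sign of 23 subunits to positive and of 4 to negative, with 0 of these called in either fit. Among the genes named by rule, directions turned with the offsets for UQCRH (0.262), COX8A (0.178), COX7A2 (0.00531), ATP5MC3 (0.0219) and ATP5MC1 (0.151), and with single libraries left out, where UQCRH ranged between -0.287 and 0.063, COX7A2 between -0.575 and 0.011 and NDUFA4L2 between -0.315 and 0.612; the cause was not tested. Whether the numbers 1 and 3 pair the libraries is not settled here. Across genes r was -0.015 between the same-numbered deviations of the groups, and 1 such value cannot decide it. With the replicate block, which leaves fewer residual degrees of freedom, 4843 genes were called, with 5 subunits higher, 28 lower and a median of -0.386. With 2 libraries a group and 2 residual degrees of freedom, small changes can go uncalled.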
